A study of Mus musculus with 25 samples.

Results

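mmu-mir-191 and mmu-mir-425 are the 2 microRNA hairpins of 1 locus on mouse chromosome 9. They were taken by name from a table of 1193 microRNA precursors counted in blood, and both hairpins passed the filter on low counts. The libraries come from blood of male C57BL/6 mice at 2, 9, 15, 24 and 30 months of age, with 5 libraries per age and 25 in all. No treatment or allele is given in the labels, so age is the one labelled difference between groups. The samples carry separate numbers, but nothing says that each number is 1 animal, so p-values measure the spread between these samples.

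A microRNA is cut from a hairpin as a short strand that guides Argonaute proteins to messenger RNAs through its seed, the bases near its 5′ end. Hairpins that lie side by side on a strand can be processed from 1 primary transcript, and their mature forms may still differ in amount, because cutting, arm choice and decay act on each hairpin separately. In mouse erythroblasts, miR-191 is known for a fall during terminal maturation that allows the nucleus to be expelled, with the kinase gene Riok3 and the Myc antagonist gene Mxi1 among its targets. miR-425 is known to act on the human natriuretic peptide gene NPPA. miR-191 and miR-425 are both used as endogenous references in PCR of small RNAs from blood, which rests on their levels being steady between samples.

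The mature sequences are shown because the hairpins share a locus but not a seed. They are from RefSeq on GRCm38.p6, 5′ to 3′, with the seed (bases 2 to 8) in capitals.
mmu-miR-191-5p: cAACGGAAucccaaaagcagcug
mmu-miR-191-3p: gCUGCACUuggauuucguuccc
mmu-miR-425-5p: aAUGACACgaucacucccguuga
mmu-miR-425-3p: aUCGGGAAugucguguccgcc
The 4 seeds differ from each other. Among the 1738 mature sequences of the RefSeq table, none from another hairpin has the seed of either arm of mir-191 or of miR-425-3p, and mmu-miR-489-3p alone has the seed of miR-425-5p. The hairpin mir-489 had 0 counts in all 25 libraries.

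The hairpins follow, since each count covers a whole hairpin, with the arms in capitals.
mmu-mir-191: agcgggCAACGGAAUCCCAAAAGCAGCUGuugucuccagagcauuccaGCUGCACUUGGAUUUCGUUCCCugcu
mmu-mir-425: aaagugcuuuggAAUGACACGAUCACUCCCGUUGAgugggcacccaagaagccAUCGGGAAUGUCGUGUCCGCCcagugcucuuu
On GRCm38.p6, mir-191 lies at chr9:108568319-108568392 and mir-425 at chr9:108568777-108568861, both on the plus strand and 384 bases apart. The sources used here do not name the build used for counting. RefSeq places both inside the gene Dalrd3 (108567484 to 108572773), and in GENCODE vM21 they lie outside the 9 Dalrd3 transcripts and within the long noncoding RNA 4833445I07Rik (108567533 to 108569174). Of the 2 transcripts of that RNA, 1 has both hairpins in an exon, and the other has mir-191 in an intron and ends before mir-425. GENCODE also lists Gm24083, a microRNA gene on the minus strand (108568295 to 108568414), across mir-191. The use of strand in counting is not stated, so any reads from that strand cannot be told apart from those of mir-191. Each mature sequence occurs in 1 hairpin of the RefSeq table, and no other tested precursor had counts within 0.2 log2 units of either hairpin in every library.

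Library totals ran from 4.884 to 24.25 M counts (M, mega), with a median of 15.39 M. They averaged 18.8 ± 2.81 M at 2 months, 16.1 ± 2.46 at 9, 18.2 ± 4.36 at 15, 14.3 ± 5.98 at 24 and 9.89 ± 2.71 at 30 months (SD, n = 5 each), so the 30-month libraries were on average the shallowest. mir-191 had 48200 to 373992 counts per library and mir-425 had 3512 to 21489. Neither was near the floor of 3 counts in any library, and these limits cover counting error only.

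mir-191 was one of the most abundant microRNAs of the blood. Its level, scaled by trimmed mean of M-values (TMM), showed no age difference beyond the spread between libraries. mir-191 ranked 10 by mean level among the tested precursors, at 12212 ± 2125 CPM (counts per M of TMM-scaled library size; SD, n = 25) or 1.23% ± 0.254 of the counts. Above mir-191 in rank, mir-486a and mir-486b averaged 296070 and 295890 CPM, and mir-451a and mir-451b 85138 and 85119 CPM. Such near-equal entries may count the same reads, both in the rank and in the total behind the share. At 2 months the level of mir-191 was 13739, 12751, 10335, 11995 and 9302 CPM in replicates 1 to 5. At 9 months it was 12461, 9726, 12450, 12769 and 16202 CPM. At 15 months it was 10290, 12621, 11074, 10754 and 16424 CPM. Replicate 5 at either age lay above every 2-month library, and the others lay within the 2-month range. At 24 months the level was 14045, 15163, 14748, 8476 and 10978 CPM. At 30 months it was 11699, 13321, 8969, 12507 and 12496 CPM. The 24-month libraries fell into 3 that lay above every 2-month library, 1 inside their range and 1 below it, and the 30-month libraries lay within the 2-month range except replicate 3, which lay below it. These are TMM-scaled values. As a share of counts, 4 of 5 libraries at 24 and 4 of 5 at 30 months lay above every 2-month library. By that share, 3 of 5 at 9 and 2 of 5 at 15 months lay above every 2-month library, and 1 at 15 months below.

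Ordered by mean, mir-191 stood at 12722 ± 2304 CPM at 9 months, 12682 ± 2867 at 24, 12233 ± 2501 at 15, 11798 ± 1683 at 30 and 11624 ± 1798 at 2 months (SD, n = 5 each). Each step in this order was smaller than the SD at either age. In edgeR's quasi-likelihood test across all tested precursors, the log2 change at 30 against 2 months was 0.02 (SE 0.17, 95% confidence interval −0.32 to 0.37, adjusted p = 0.956), a fold of 1.01 with an interval of 0.799 to 1.29. It was 0.13 (SE 0.17, adjusted p = 0.872) at 9 against 2 months, 0.07 (SE 0.17, adjusted p = 0.926) at 15 against 2 and 0.13 (SE 0.17, adjusted p = 0.692) at 24 against 2 months. The slope over all ages was 0.0062 log2 units per 10 months (95% interval −0.10 to 0.11, edgeR adjusted p = 0.963), and the test of any age gave an adjusted p = 0.978. With 5 libraries per age, a change within these intervals could not be told from 0.

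mir-425 was less abundant, at rank 39 by mean level with 882 ± 142 CPM (SD, n = 25), and its lowest values were at 24 months. At 2 months it was at 1203, 937, 878, 1028 and 847 CPM in replicates 1 to 5. At 9 months it was at 853, 841, 856, 966 and 1302 CPM. Of the 9-month libraries, 4 lay below the 2-month mean and replicate 5 lay above every 2-month library. At 15 months it was at 847, 853, 721, 946 and 883 CPM. At 24 months it was at 884, 814, 691, 618 and 778 CPM. At 30 months it was at 893, 919, 781, 894 and 829 CPM. In these TMM-scaled values all 5 libraries at each of 15, 24 and 30 months lay below the 2-month mean. At 24 months 4 of 5 lay below every 2-month library. As a share of counts, 3 of 5 libraries at 15, 2 at 24 and 1 at 30 months lay below the 2-month mean. By that share, 2 of 5 at 24 months lay below every 2-month library.

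**Figure D1:**
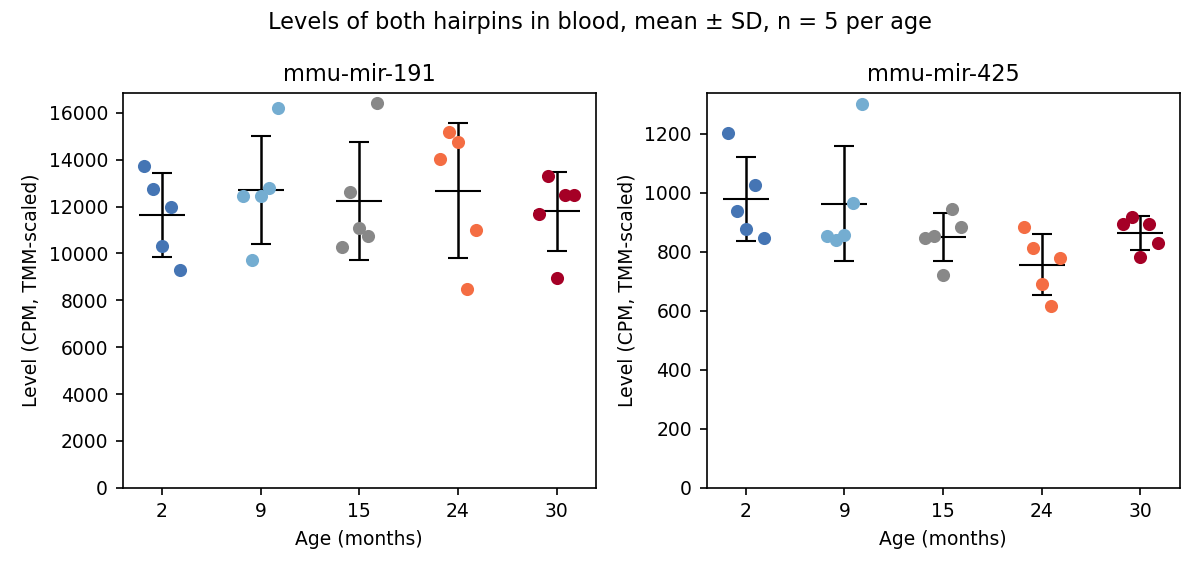
Levels of mmu-mir-191 (left) and mmu-mir-425 (right) in CPM with TMM-scaled library sizes against age in months; each point is 1 library and the black marks give mean ± SD (n = 5 per age). mir-191 groups overlap at all ages, with means from 11624 to 12722 CPM, and the lowest mean of mir-425 is 757 CPM at 24 months.

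By mean level mir-425 stood at 978 ± 143 CPM at 2 months, 963 ± 196 at 9, 863 ± 56.5 at 30, 850 ± 82.1 at 15 and 757 ± 104 at 24 months (SD, n = 5 each). Each step in this order was smaller than the larger SD of the neighbouring ages. The largest difference from 2 months was at 24 months, with a log2 change of −0.37 (SE 0.13, 95% interval −0.64 to −0.10), a fold of 0.774. Its edgeR p was 0.00982 before adjustment and its adjusted p = 0.0677, so it did not pass the threshold of 0.05. The log2 change was −0.02 (SE 0.13, adjusted p = 0.963) at 9 against 2 months, −0.20 (SE 0.13, adjusted p = 0.882) at 15 against 2 and −0.18 (SE 0.13, adjusted p = 0.402) at 30 against 2 months. The slope was −0.10 log2 units per 10 months (95% interval −0.19 to −0.01, edgeR adjusted p = 0.0963), and the test of any age gave an adjusted p = 0.283.

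**Figure D2:**
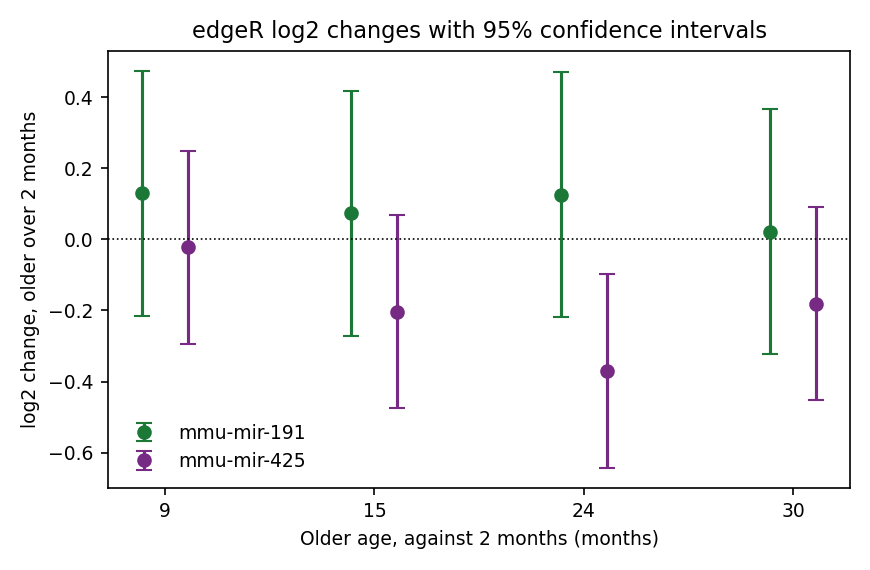
log2 change of mmu-mir-191 (green) and mmu-mir-425 (purple) at 9, 15, 24 and 30 months, each over 2 months, from the edgeR fit of all 25 libraries; bars are 95% confidence intervals. All intervals of mir-191 and those of mir-425 at 9, 15 and 30 months cross 0, and that of mir-425 at 24 months runs from −0.64 to −0.10.

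Neither hairpin was called in any comparison at an edgeR adjusted p under 0.05, that is 0 of 2 each time. Over all tested precursors the share called was 2.07% at 9 against 2 months, 1.48% at 15 against 2, 12.1% at 24 against 2, 14.2% at 30 against 2, 7.99% for any age and 19.8% for the trend. Before adjustment, mir-425 had an edgeR p under 0.05 at 24 against 2 months and for the trend, and mir-191 had one in no comparison. DESeq2 called mir-425 in the same comparisons, with log2 changes of −0.38 (adjusted p = 0.0288) at 24 against 2 months and −0.0104 per month (adjusted p = 0.0473), and it called mir-191 in none. Over all alternatives the adjusted p of mir-425 ran from 0.0288 to 0.993 at 24 against 2 months and from 0.0473 to 0.913 for the trend.

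The result at 24 months depends on how libraries are scaled. The TMM factors were 0.930 to 1.29 at 24 months and 0.803 to 0.961 at 2 months. With library totals alone, the median log2 change of all tested precursors moved by 0.36 at 24 against 2 months and by 0.24 at 30 against 2 months. At 24 months mir-191 then passed the test, with a log2 change of 0.50 (edgeR adjusted p = 0.0321, and 0.0321 to 0.909 over all alternatives), while mir-425 was at −0.0013 (adjusted p = 0.993). As a share of counts, mir-191 made up 1.45% ± 0.362 in the 24-month and 1.03% ± 0.0992 in the 2-month libraries, and mir-425 0.0866% ± 0.0140 in the 24-month and 0.0867% ± 0.00749 in the 2-month libraries (SD).

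The balance between the hairpins, which no scaling affects, was shifted towards mir-191 at 24 months. At 2 months the count ratio of mir-191 to mir-425 was 11.4, 13.6, 11.8, 11.7 and 11.0 in replicates 1 to 5. At 9 months it was 14.6, 11.6, 14.5, 13.2 and 12.4, and at 15 months 12.1, 14.8, 15.4, 11.4 and 18.6. At 24 months it was 15.9, 18.6, 21.3, 13.7 and 14.1. The 24-month libraries all lay above the 2-month ones, without overlap, while the 9- and 15-month libraries overlapped with them. How often the ratio of other precursor pairs separates these ages was not tested, so the separation is not known to be particular to this pair. At 30 months the ratio was 13.1, 14.5, 11.5, 14.0 and 15.1, with 3 of 5 libraries above every 2-month library and replicates 1 and 3 within their range.

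The log2 ratio averaged 4.04 ± 0.271 in the 24-month and 3.57 ± 0.117 in the 2-month libraries (SD), a difference of 0.48 or 1.39-fold. A two-sided exact permutation test over the 10 libraries gave p = 0.00794, the smallest it can give with 5 against 5, and an adjusted p = 0.0317 over the 4 older ages. The differences from 2 months were 0.16 at 9 months (exact permutation p = 0.103, adjusted p = 0.103), 0.26 at 15 months (exact p = 0.0794, adjusted p = 0.103) and 0.19 at 30 months (exact p = 0.0635, adjusted p = 0.103), and these did not pass. Counting error gives a single log2 ratio an SE of 0.0103 to 0.0252, far below the SD between libraries of 1 age.

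Without any one of the 10 libraries, the difference at 24 months was 0.38 to 0.54. Its exact adjusted p was above 0.05 without any of the 5 libraries of 2 months, or without replicate 2 or 3 of 24 months, at 0.0635 to 0.127. In each of these cases the 24-month libraries still lay above the 2-month ones without overlap. With groups of unequal size, another split of the libraries can give a mean difference as large, which raises the exact p. At 30 months the difference passed without replicate 3, the shallowest library of that age, at 0.25 (exact permutation adjusted p = 0.0476, and 0.0476 to 0.198 over all alternatives).

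**Figure D3:**
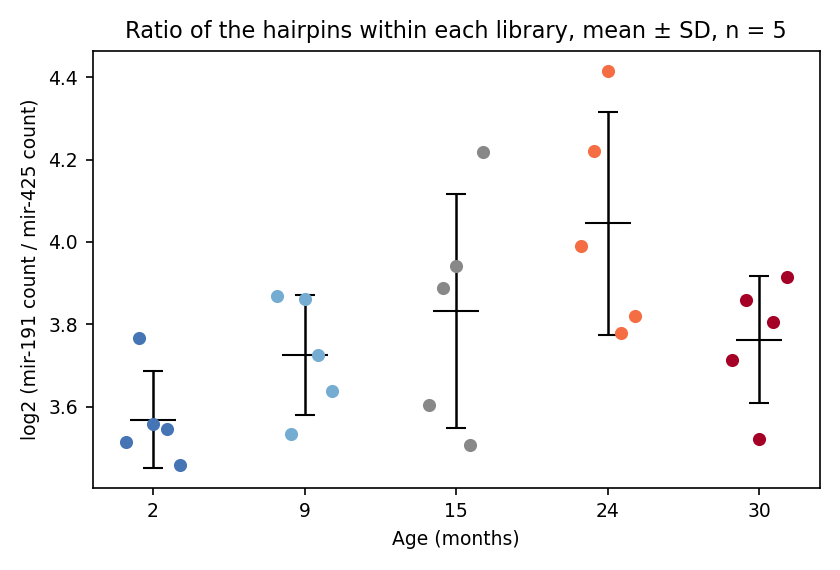
log2 of the count ratio of mmu-mir-191 to mmu-mir-425 within each library against age in months; points are libraries and black marks give mean ± SD (n = 5 per age). The 24-month libraries, from 3.78 to 4.42, lie above the 2-month libraries, from 3.46 to 3.77.

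Libraries were sequenced in lanes 3 to 8, which the column names give, with 3 to 5 libraries in each. In each of the 4 lanes that held 24- and 2-month libraries, 1 of each age, the ratio was higher at 24 months, at 13.7 against 11.4 in lane 4, 14.1 against 13.6 in lane 5, 15.9 against 11.7 in lane 7 and 18.6 against 11.0 in lane 8. The mean difference within lanes was 0.38 on the log2 scale. Lane 3 held no 2-month library, so no comparison with 2 months could be made within it. Its 3 libraries, of 9, 15 and 24 months, had ratios of 14.6 to 21.3. Without its 24-month library, replicate 3, the pooled difference at 24 months was 0.38, against 0.48 with it. What lane 3 adds apart from age was not tested. The ratio was also higher in 4 of 4 lanes at 30 and at 9 months and in 3 of 4 at 15 months, each against 2 months in the same lane. In TMM-scaled CPM, mir-425 was lower in 4 of 4 lanes at 24 and at 30 months. On that scale mir-191 was higher in 2 of 4 lanes at either age. As a share of counts, mir-425 was higher at 24 months in lanes 5 and 7 and lower in lanes 4 and 8. At 30 months that share was higher in lanes 6, 7 and 8 and lower in lane 5. The share of mir-191 was higher at 24 months in lanes 5, 7 and 8 and lower in lane 4. At 30 months the share of mir-191 was higher in lanes 5, 6, 7 and 8.

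Across the 25 libraries the log2 levels of the hairpins were positively related, with Pearson r = 0.470 (permutation p = 0.0164, adjusted p = 0.0329 over 6 values) and Spearman rho = 0.413 (permutation p = 0.0408, adjusted p = 0.0599). Without the 2 libraries farthest from the median of mir-191, which were 24 months replicate 4 and 30 months replicate 3, r was 0.296 (permutation p = 0.171), so with TMM scaling the pooled relation rests on those libraries. It depends on the scaling, with a pooled r of 0.724 for upper quartile factors and 0.513 for library totals. Without the 2 libraries farthest from the median of mir-191 on each scale, these were 0.647 (permutation p = 0.000740) and 0.494 (permutation p = 0.0167). Relative log expression factors gave 0.467 with all libraries and 0.226 without the 2 farthest. After the mean of each age was removed, r was 0.657 and rho 0.675 (permutation adjusted p = 0.00123 for both). Without the 2 libraries farthest from the median of mir-191, chosen anew from the values with age means removed, r was 0.630. After the mean of each lane was removed, r was 0.397 (permutation adjusted p = 0.0599) and rho 0.143 (adjusted p = 0.495). Without the 2 farthest libraries, again chosen anew from the values with lane means removed, r was 0.535 (permutation p = 0.00973). With lane means removed and all libraries kept, r was 0.708 with upper quartile factors and 0.124 with library totals. No value is given for a single lane, since each held fewer than 6 libraries. Both levels share the scaling of their library, which alone can relate them.

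**Figure D4:**
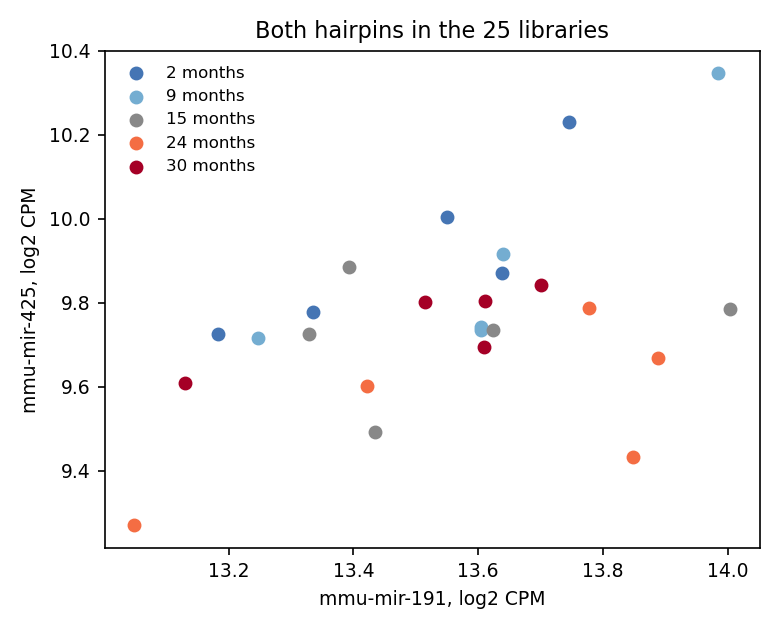
log2 CPM of mmu-mir-425 against that of mmu-mir-191 in the 25 libraries, coloured by age. At a given level of mir-191 the 24-month libraries tend to lie low in mir-425, and the pooled Pearson r is 0.470.

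The precursors whose pattern was most like that of either hairpin lie at other loci. Likeness was measured as the SD of the log2 ratio over the 25 libraries, where a small value means a steady ratio, among 151 other precursors with a mean of at least 10 CPM. For mir-191 the steadiest partners were mir-30b (SD 0.145), mir-140 (0.172), mir-664 (0.211), mir-350 (0.214) and mir-423 (0.221), against a median of 0.401. mir-425 ranked 13 in likeness to mir-191, with an SD of 0.246. For mir-425 the steadiest were mir-92a-2 (0.165), mir-361 (0.174), mir-92a-1 (0.174), mir-350 (0.177) and mir-30d (0.178), against a median of 0.36. mir-191 ranked 28 in likeness to mir-425. mir-92a-1 and mir-92a-2 give the same mature microRNA, so their reads may be shared. None of these partners passed the edgeR test at 24 or 30 against 2 months, and the smallest adjusted p among them was 0.139, for mir-350 at 24 months.

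The spread between libraries of 1 age was 0.273 log2 units for mir-191 and 0.192 for mir-425, where the median over the 87 precursors of at least 100 CPM was 0.264. From the steadiest, mir-425 ranked 14 of 87 and mir-191 ranked 46 of 87. Next to 15 precursors of microRNAs used as references in PCR of blood or plasma, all of them tested, mir-425 had the third smallest spread of the 17, behind mir-24-2 and mir-24-1, and mir-191 the eleventh. At 30 against 2 months mir-191 had the smallest change of the 17 and mir-425 the seventh smallest with TMM and with relative log expression factors. With library totals mir-191 ranked 9 and mir-425 ranked 2 in size of change, and with upper quartile factors they ranked 6 and 7. These ranks are for 30 months only. At 24 against 2 months, with TMM factors, the log2 change was 0.13 for mir-191 and −0.37 for mir-425. For both hairpins it was larger in size there than at 30 months.

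Of those 15 reference candidates, 1 passed at 30 against 2 months, higher, and 3 at 24 against 2 months, 2 higher and 1 lower, with medians of −0.31 and −0.24 log2 units against −0.04 and −0.00372 over all tested precursors. Over all tested precursors 14.2% passed at 30 and 12.1% at 24 months, shares that 1 of 15 lies below and 3 of 15 lies above. The 3 at 24 months were mir-24-1 and mir-24-2, higher, and mir-484, lower. mir-24-1 and mir-24-2 are hairpins of 1 microRNA, miR-24, so they may not be independent entries. With library totals the 2 that were higher at 24 and at 30 months were mir-24-1 and mir-24-2, none was lower, and the median at 24 months was 0.14. Upper quartile scaling gave 1 higher at either age and none lower, and relative log expression scaling added mir-30e, lower at 30 months. The one at 30 months was mir-24-2, which averaged 44.7 ± 3.23 CPM in the 30-month and 33.1 ± 1.69 CPM in the 2-month libraries (SD; log2 change 0.43, SE 0.10, edgeR adjusted p = 0.00755). mir-24-2 is also on the list of neutrophil and monocyte markers. The most abundant candidates, mir-16-1, mir-16-2 and let-7i, had spreads of 0.513, 0.513 and 0.769 log2 units and changes at 30 against 2 months of −0.54 (SE 0.29), −0.54 (SE 0.29) and −0.97 (SE 0.42), none past the test. mir-16-1 and mir-16-2 give the same mature microRNA.

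**Figure D5:**
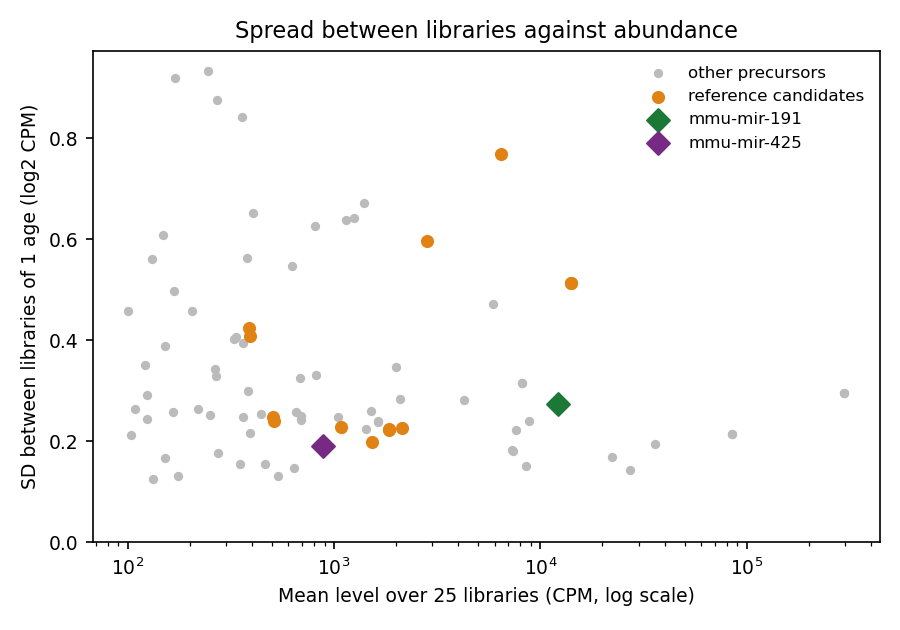
SD of log2 CPM between libraries of 1 age, pooled over the 5 ages, against mean level on a log axis for the 87 precursors of at least 100 CPM; orange points are reference candidates and diamonds are mmu-mir-191 and mmu-mir-425. mir-425 lies at 0.192 and mir-191 at 0.273, while let-7i lies at 0.769.

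Markers of blood cells were read in the same libraries, where 12.1% of all tested precursors passed at 24 and 14.2% at 30 months against 2 months. In whole blood, fewer cells of a type and less RNA per cell cannot be told apart. Of 6 neutrophil and monocyte markers, 4 were higher at 24 and 4 at 30 months against 2 months. Their summed level was 3545 to 8314 CPM at 24, 3385 to 7429 CPM at 30 and 4217 to 8532 CPM at 2 months, ranges that overlap. mir-21a, which made up most of that sum, did not pass. Under the other scalings 4 were higher at 24 months, and 3 to 5 at 30 months. mir-223, made by neutrophils and monocytes, averaged 158 ± 44.1 CPM in the 30-month and 58.2 ± 2.85 CPM in the 2-month libraries (SD; log2 change 1.44, SE 0.17, edgeR adjusted p = 1.65e-06). Of 7 red cell markers, 2 were lower at 24 months and 1 at 30 months, with mir-144 at a log2 change of −1.41 (SE 0.35, edgeR adjusted p = 0.0101) at 30 against 2 months. The count of 1 of 7 at 30 months is at the share over all tested precursors. With library totals no red cell marker was lower at either age, and 2, mir-92a-1 and mir-25, were higher at 24 months. With upper quartile scaling none was lower at 24 months and mir-144 was lower at 30 months. The red cell sum, in which mir-486a and mir-486b overlap and may count the same reads, was 506420 to 835790 CPM at 24, 554450 to 836330 CPM at 30 and 765320 to 915920 CPM at 2 months.

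Of 6 platelet markers, 1 was higher and 1 lower at 24 months, and 1 higher and 2 lower at 30 months, each against 2 months. Those lower were 0 at 24 and 1 at 30 months with library totals, and 0 at 24 months with upper quartile scaling. Their sum was 308 to 588 CPM at 24, 337.9 to 618 CPM at 30 and 340 to 768 CPM at 2 months. The platelet marker with the smallest p, mir-199a-1, averaged 0.351 CPM at 30 months and 1.18 CPM at 2 months, around the 0.614 CPM that 3 counts make in the smallest library. Of 6 lymphocyte markers, 1 was higher at 24 and at 30 months, mir-146b, with a log2 change of 0.70 (SE 0.22, edgeR adjusted p = 0.0370) at 30 against 2 months. With relative log expression scaling none passed at 24 months, and with library totals mir-155 was higher there too. These lymphocyte counts, 1 of 6, are near the share over all tested precursors. The lymphocyte sum was 898 to 1663 CPM at 24, 754 to 1279 CPM at 30 and 1030 to 1350 CPM at 2 months. All markers of the 4 lists passed the filter, so none was at 0 throughout. Their part in the values of mir-191 and mir-425 was not tested.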

How the data were processed

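Small RNA of mouse blood was sequenced; the kit was TruSeq, per the labels' protocols. What the authors deposited is a table of unnormalised counts, the reads per microRNA hairpin in each library, with no split by arm. The submitters' processing notes list bcl2fastq 1.8.4, Trimmomatic 0.36 and SAMtools 1.3.1-9 but no step for them. For the aligner, counter, microRNA release and strand setting nothing is given in the sources used. Each library has its own index sequence, so none is shared between ages and index and age cannot be told apart.

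Counts were tested with edgeR 4.0.16 in R 4.3.3 (quasi-likelihood, TMM factors, default filter by age, robust dispersions, common biological coefficient of variation 28.1%), in 1 fit of 25 libraries. P-values were adjusted by Benjamini-Hochberg over 338 precursors, and intervals are at 95%. DESeq2 1.42.0 was an alternative. The code was checked on simulated data. Ratios were compared by exact permutation, and correlations with 100000 resamples (scipy 1.17.1). Likeness used counts plus 0.5. The steadiest 5 partners per hairpin, changed or most abundant reference candidates and 1 marker per list were named. Libraries were grouped by labelled age and numbered in deposited order. In 50 same-age pairs, chi-square was at least 161 times its degrees of freedom, so no library was a duplicate of another of its age. Pairs of different ages were not checked. The hairpins and lists were chosen with earlier results of these data known.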

Additional observations from a re-analysis of the deposited data

Results flagged for a closer look

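Within 15 groups of 5 libraries (the levels of both hairpins and their log2 ratio at each age), 1 library stood apart from the others of its age by Dixon's criterion, which chance meets in about 1 of 20 groups. It was 9 months replicate 5, with 1302 CPM of mir-425, where the other 4 libraries of that age had 841 to 966 CPM. The same library had the highest level of mir-191 at 9 months, 16202 CPM, and the lowest TMM factor of all libraries, 0.778.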

How the results depend on the processing

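No paired analysis was possible because the labels give no replicate numbers that ages share. Lane, which the column names give, was used as a block in its place. With library totals, the log2 changes of mir-425 were 0.083 at 9 and 0.069 at 30 against 2 months and 0.00083 per month, on the other side of 0, and mir-191 passed at 24 months at 0.50. Without a filter mir-425 stood at 0.0070 at 9 months and the slope of mir-191 at −0.00010 per month. With lane in the fit mir-191 was at −0.055 at 30 months and −0.00049 per month, and without the 2-month group at −0.00079 per month. DESeq2 called mir-425 at 24 months (−0.38) and for the trend (−0.0104 per month). Without 1 library, mir-191 ranged from −0.013 to 0.213 at 9 months, −0.033 to 0.168 at 15, −0.049 to 0.165 at 30, 0.055 (without 2 months replicate 5) to 0.296 (without 24 months replicate 4) at 24 and −0.00150 to 0.00522 per month, and mir-425 from −0.189 to 0.023 at 9, −0.251 to −0.137 at 15, −0.432 to −0.247 at 24 and −0.228 to −0.084 (without 30 months replicate 3) at 30 months and −0.0112 to −0.0064 (without 24 months replicate 4) per month. Except where named here, no alternative moved either hairpin across the threshold. The difference in log2 ratio ranged from 0.121 to 0.207 at 9 months, 0.167 (without 15 months replicate 5) to 0.344 at 15, 0.384 to 0.543 at 24 and 0.156 to 0.254 at 30 months. Its mean within lanes was 0.093 at 9 months. It was 0.254 at 30 months without the 2 shallowest libraries, a setting added after the data were seen, as were the comparison and the correlation within lanes. The correlation was 0.296 without its 2 farthest libraries and 0.724 with upper quartile factors. The number of precursors called ranged over these alternatives from 3 to 8 at 9 months, 2 to 5 at 15, 24 to 72 at 24, 15 to 57 at 30, 14 to 44 for any age and 9 to 89 for the trend, where the reported counts were 7, 5, 41, 48, 27 and 67. The cause was not tested.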
